A study of Mus musculus with 33 samples.

Results

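The Hox genes of mouse dorsal skin, other than Hoxc13, were followed through the hair growth cycle. A gene was included when the array held a probe set annotated with it alone, that is with a single symbol made of Hoxa, Hoxb, Hoxc or Hoxd and a number. Of 38 such genes in the reference gene table, 32 had a probe set of this kind. They were 32 of the 18193 genes so measured, with 47 of the 45037 probe sets. Where a gene had several, the probe set with the highest mean log2 signal over all arrays stood for it. Hoxc13 was left out by the choice of genes, and its mean signal went from 299 in telogen skin to 2778 in late anagen skin.

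The study profiled whole upper-mid dorsal skin of wild-type C57BL/6 mice, with 1 mouse on each of 33 Affymetrix arrays, to find genes that change with the growth and rest of hair follicles. Follicles of young mice pass together through anagen, when hair grows, catagen, when the follicle regresses, and telogen, when it rests. In the natural cycle 23 untreated mice of both sexes were taken at postnatal day 23 or 25 (P23 and P25, early anagen, n = 4), P27 (mid anagen, n = 3), P29 (late anagen, n = 3), P34 (late anagen, 1 mouse), P37 or P39 (early catagen, n = 6), P41 (mid catagen, n = 3) and P44 (telogen, n = 3). In the other cycle, anagen was induced by pulling out the resting hairs with wax, and 10 female mice of at least postnatal day 50 were taken in pairs 3 days later (D3, early anagen), 5 days later (D5, mid anagen), 8 and 12 days later (D8 and D12, late anagen) and 17 days later (D17, early catagen). There were no undepilated mice of that age, and no deletion or transgene in any group. The depilated mice therefore differed from the natural cycle in both age and treatment, and these cannot be told apart. They were also all female. With sex as a covariate the counts of Hox genes called between the cycles were the same. That covariate was estimated from natural-cycle mice only, so it cannot show a sex effect particular to older or depilated mice.

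Hox genes encode homeodomain transcription factors that give cells their position along the body axis. In mammals they lie in 4 clusters, HoxA on chromosome 6, HoxB on chromosome 11, HoxC on chromosome 15 and HoxD on chromosome 2 of the mouse, and genes with the same number in different clusters are paralogs of common descent. Within a cluster, low numbers are used nearer the head and high numbers nearer the tail and the limb ends. Adult skin fibroblasts keep a Hox pattern of their body site, and Hoxc13 is used by the cells that build the hair shaft.

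Of the 32 Hox genes, 19 exceeded the array median on 3 or more of the 33 arrays, and these were analysed further. HoxA gave 5 of 9 genes (Hoxa3, Hoxa5, Hoxa7, Hoxa9 and Hoxa10), HoxB 6 of 9 (Hoxb2, Hoxb3, Hoxb4, Hoxb5, Hoxb6 and Hoxb9), HoxC 6 of 6 (Hoxc4, Hoxc5, Hoxc6, Hoxc8, Hoxc9 and Hoxc10) and HoxD 2 of 8 (Hoxd8 and Hoxd9). Their paralog numbers ran from 2 to 10. In HoxC no gene with a number above 10 was among the 32, so the upper end of that cluster was not examined. The other 13 were Hoxa2, Hoxa4, Hoxa11, Hoxa13, Hoxb1, Hoxb7, Hoxb13, Hoxd1, Hoxd3, Hoxd10, Hoxd11, Hoxd12 and Hoxd13. Their median signals lay between 5.6 and 74.4, and the highest signal of any of them on any array was 138.9. A dim probe set gives a bound on that probe set, so these genes are not shown to be silent. Hoxa5, Hoxb2, Hoxb3, Hoxb4, Hoxb6, Hoxc6, Hoxc8 and Hoxd8 were above the array median on all 33 arrays. Just inside the rule stood Hoxa10 with 6 arrays and Hoxb9 with 8, and just outside stood Hoxa2 with 2. Hoxc10 was above the median on 11 arrays of the natural cycle and on 0 of the 10 depilation arrays. In the comparisons between the cycles given below, Hoxc10 was not called. Signals of different probe sets depend on their probes and were not set against each other.

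**Figure D1:**
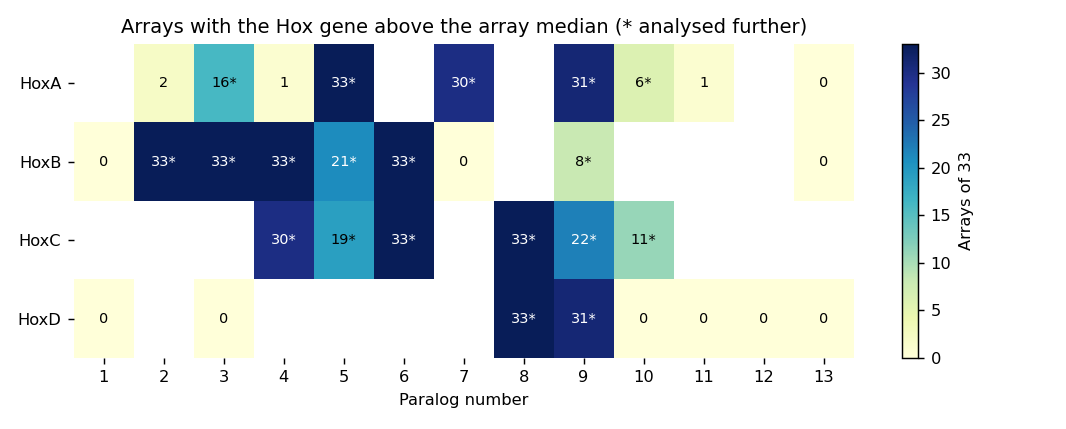
Each cell gives the number of arrays, of 33, on which a Hox gene was above the median of its array. Rows are clusters and columns are paralog numbers, and a star marks the 19 genes analysed further. Cells are blank where there was no such gene or no probe set named it alone. The cell of Hoxc13 is blank because that gene was left out by choice. Stars run from paralog number 2 to 10, and HoxD has stars at 8 and 9 only.

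The arrays had medians between 111.2 and 142.5, and arrays of the same time point correlated at 0.943 to 0.980 over the probe sets kept. The labelled tissue was borne out by Krt14, Krt5, Krt10, Col1a1 and Col3a1, keratins of epidermis and collagens of dermis, whose lowest signal on any array was 3729. In whole skin, fewer cells of a type and less RNA per cell cannot be told apart. The P34 array, a single mouse, was left out of the tests. It had the lowest signal of the 23 natural arrays for 4 of the 19 genes, at 545.3 for Hoxa5, 30.6 for Hoxa7, 421.2 for Hoxc8 and 398.4 for Hoxd8. The share of all probe sets that were lowest on this array was not counted. Its summed signal of 8 fibroblast markers, 64958, was also the lowest of the natural arrays. Not every marker list was lowest there. Its summed signals of muscle, 81238, and cornified epidermis, 57032, were above the natural lows of 65129 and 39430. The part of these markers in the Hox values was not tested.

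Over the 6 phases of the natural cycle 13 of the 19 Hox genes passed the F test of limma (Benjamini-Hochberg adjusted p under 0.05), beside 72.6% of all 26988 probe sets kept. The share among Hox genes was thus near the background. The genes were Hoxa5, Hoxa7, Hoxa9, Hoxb2, Hoxb3, Hoxb4, Hoxb6, Hoxc4, Hoxc5, Hoxc8, Hoxc9, Hoxd8 and Hoxd9. The smallest adjusted p was that of Hoxc8, at 2.04e-07, followed by Hoxd9 at 1.82e-05 and Hoxb3 at 9.65e-05. Hoxb9 had an adjusted p of 0.857. The probe sets of 3 genes disagreed in this test, with adjusted p of 0.88 and 3.8e-05 for Hoxa3, 0.00914 and 0.202 for Hoxa5, and 0.0415 and 0.159 for Hoxa9, the main probe set first. The call of Hoxa9, at 0.0415, was lost when any of 12 of the 22 arrays was left out, with an adjusted p of up to 0.0944. That of Hoxa7 (0.0293) was lost without P23 replicate 2 or P25 replicate 2 (up to 0.0528), and that of Hoxc9 (0.0267) without P44 replicate 3 (0.0622).

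The phase with the lowest mean differed between clusters. Of the 6 HoxB genes 4 were lowest in telogen (Hoxb3, Hoxb5, Hoxb6 and Hoxb9) and 2 in mid catagen (Hoxb2 and Hoxb4). Of the other 13, 8 were lowest in late anagen (Hoxa3, Hoxa7, Hoxa9, Hoxc4, Hoxc9, Hoxc10, Hoxd8 and Hoxd9). The highest mean of a HoxB gene fell in early anagen for Hoxb5 and Hoxb9, in mid anagen for Hoxb2, Hoxb3 and Hoxb6, and in late anagen for Hoxb4. Among the 6 HoxC genes it fell in telogen for Hoxc4, Hoxc6, Hoxc9 and Hoxc10 and in early anagen for Hoxc5 and Hoxc8. These orders are descriptions and neighbouring phases often overlapped.

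**Figure D2:**
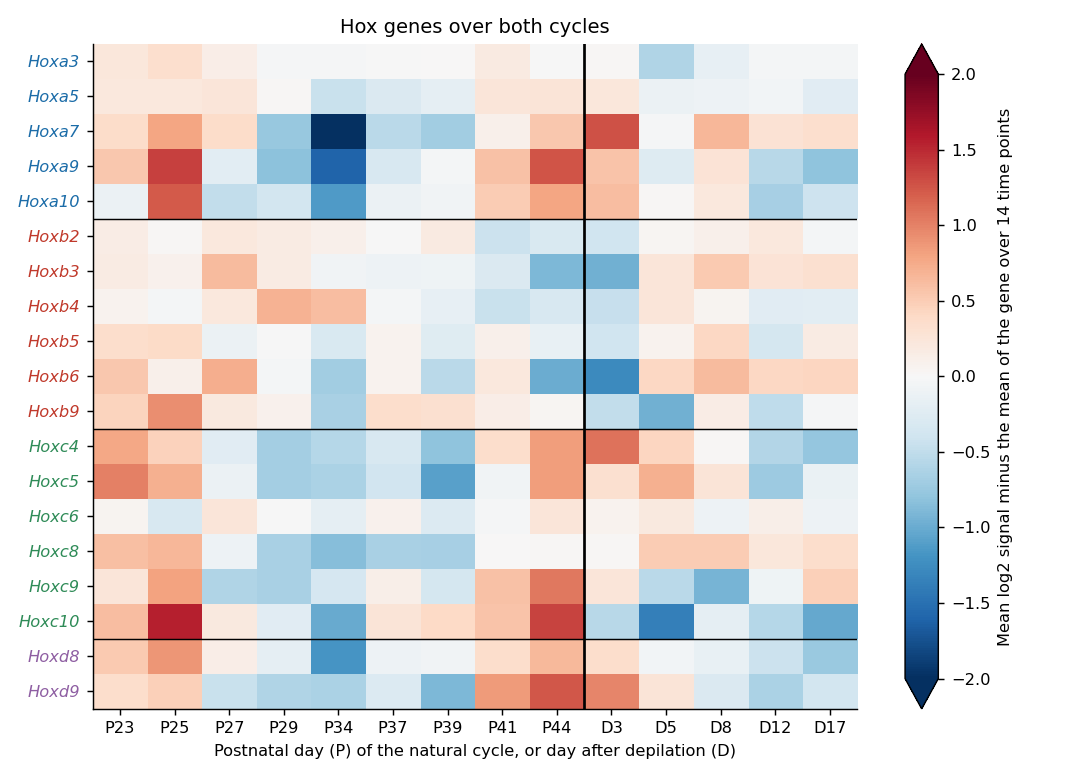
Mean log2 signal of the 19 Hox genes (rows, coloured by cluster and separated by lines) at 9 days of the natural cycle and 5 days after depilation (columns), as the difference from the mean of the gene over the 14 time points; P34 is 1 array, the natural days have 2 or 3, the depilation days have 2. At P44, Hoxb3 and Hoxb6 are blue while Hoxa9, Hoxc10 and Hoxd9 are red, and D3 shows Hoxb3 and Hoxb6 blue again.

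Between the end of growth and rest the clusters parted. In telogen skin (P44, n = 3) against late anagen skin (P29, n = 3), Hoxb3, Hoxb4 and Hoxb6 were lower, and Hoxa9, Hoxa10, Hoxc4, Hoxc5, Hoxc8, Hoxc9, Hoxc10, Hoxd8 and Hoxd9 were higher. These 12 of 19 genes passed the test, beside 44.6% of all probe sets (23.0% higher and 21.6% lower in telogen). All 6 HoxB genes had a log2 difference below 0, with a median of -0.71, from -1.06 for Hoxb3 to -0.03 for Hoxb9. By their main probe sets all 13 genes of the other clusters had one above 0, with a median of 1.30, from 0.0036 for Hoxa3 to 2.07 for Hoxa9. A dimmer probe set of Hoxc6 lay below 0, at -0.20 ± 0.42 (adjusted p = 0.722). The median of all probe sets was -0.0056. Under quantile normalization Hoxa3 turned to -0.05 and the 12 others of the 3 clusters stayed above 0. Setting HoxA, HoxC and HoxD together was a choice made after their values were seen, so the contrast between clusters is given as counts. Whether groups overlapped is stated here and below as a description only. Small groups seldom overlap for a gene with a small p, and the share of all probe sets without overlap was not counted.

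Hoxb4 and Hoxc4, paralogs of the fourth group, went opposite ways, and both had a promoter in the RefSeq table (mouse build GRCm38.p6). The stretches below run from 250 bases before to 50 after the annotated start, both on the plus strand, at chr11:96318017-96318316 for Hoxb4 and chr15:103034145-103034444 for Hoxc4, with each CG dinucleotide in capitals because Hox promoters are known for many of them.
Hoxb4: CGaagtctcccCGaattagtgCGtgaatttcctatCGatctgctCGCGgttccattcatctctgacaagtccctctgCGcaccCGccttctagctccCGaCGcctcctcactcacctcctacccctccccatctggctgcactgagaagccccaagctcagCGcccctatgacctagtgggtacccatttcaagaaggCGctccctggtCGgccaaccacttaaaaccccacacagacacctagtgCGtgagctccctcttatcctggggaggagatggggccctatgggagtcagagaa
Hoxc4: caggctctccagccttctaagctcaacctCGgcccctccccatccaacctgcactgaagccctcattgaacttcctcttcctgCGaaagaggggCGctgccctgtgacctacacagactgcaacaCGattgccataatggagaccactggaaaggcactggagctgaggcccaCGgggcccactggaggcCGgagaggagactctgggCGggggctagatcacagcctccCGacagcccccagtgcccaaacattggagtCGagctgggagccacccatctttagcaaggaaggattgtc
The Hoxb4 stretch held 14 CG dinucleotides and the Hoxc4 stretch 9, and the median of all 32851 promoters of the table was 7. Over the 10 promoters listed for 9 of the 19 Hox genes the median was 13, with a median GC content of 57.7% against 52.7% for all. The observed over expected frequency of CG had a median of 0.583 in these 10 promoters and 0.384 in all. It was 0.593 for the Hoxb4 stretch and 0.333 for the Hoxc4 stretch, which thus lay below the median of all promoters. On either strand, CCAAT (the NF-Y box) was present in 4 of the 10 Hox promoters and in 37.4% of all promoters. CACGTG (an E-box, the kind bound by the circadian factor CLOCK) was in 0 of the 10 and in 7.15% of all. TGATTNAT, a joint PBX and HOX motif, was in 0 of the 10 and in 3.22% of all, and TGACAG, a MEIS motif, in 1 and in 19.2%. A match is a stretch of letters and shows no binding, and Hoxb2, Hoxb3, Hoxb5, Hoxb6, Hoxb9, Hoxc5, Hoxc6, Hoxc8, Hoxc9 and Hoxc10 were not in the table.

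Hoxb4, a gene known from blood stem cells, had signals of 382.7, 338.5 and 399.4 in late anagen and of 217.8, 184.3 and 157.6 in telogen. The groups did not overlap, and the log2 difference was -1.01 ± 0.16 (SE, adjusted p = 0.00309). Hoxc4 had signals of 148.9, 80.6 and 206.2 in late anagen and of 385.7, 342.7 and 443 in telogen. Every telogen mouse lay above every late anagen mouse, at 1.52 ± 0.34 (adjusted p = 0.0111). In late anagen the Hoxb4 signal was thus at its highest phase mean of the natural cycle, and that of Hoxc4 at its lowest phase mean, though P39 alone, at a mean of 125.3, was lower.

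The other HoxB genes called were Hoxb3 and Hoxb6, which belong to the anterior and middle groups of the cluster. Hoxb3 measured 971.3, 698.4 and 797.7 in late anagen and 417.6, 352.3 and 402.8 in telogen. Its log2 difference was -1.06 ± 0.16 (adjusted p = 0.00269), with no overlap. Hoxb6 measured 800.3, 515.6 and 462.3 in late anagen and 280.6, 274.4 and 346.6 in telogen. The difference of -0.95 ± 0.23 (adjusted p = 0.0165) lost its call without P44 replicate 2 (adjusted p = 0.0507). Hoxb2, the most anterior member analysed, had 823.5, 705.4 and 644.8 against 422.2, 596.2 and 565. Its groups did not overlap either, but at -0.47 ± 0.18 the adjusted p was 0.0769. Hoxb5 and Hoxb9 overlapped between the groups, at -0.13 and -0.03.

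In HoxC, 5 of 6 genes were higher in telogen, and Hoxc6 (0.25 ± 0.21, adjusted p = 0.366) did not pass. Hoxc5 had 86.2, 117.8 and 87 in late anagen and 310.9, 252.8 and 269 in telogen. Its log2 difference of 1.53 ± 0.17 (adjusted p = 0.000854) was the best resolved of the cluster. Hoxc8, a gene of the thoracic region, had 524, 461.5 and 474.4 against 664.6, 806.8 and 850.9. The groups were apart, at 0.66 ± 0.15 (adjusted p = 0.0106). Hoxc9, also of the trunk, had 165.2, 110.4 and 23.7 against 265.1, 254.9 and 326.8, and the signal of 23.7 was raised to the floor of 34.6. The difference of 1.71 ± 0.54 (adjusted p = 0.0403) was lost without P29 replicate 2 or any 1 of the P44 arrays (up to 0.106). Hoxc10, used around the hind limb, had a mean of 77.7 in late anagen and 246.9 in telogen, at 1.57 ± 0.39 (adjusted p = 0.0167). That call was lost without P29 replicate 2, P29 replicate 3 or P44 replicate 3 (up to 0.0563).

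Both HoxD genes were higher in telogen. Hoxd9 had 163.6, 151.9 and 181.7 in late anagen and 698.4, 622.4 and 481.3 in telogen. At 1.84 ± 0.18 (adjusted p = 0.000471) it had the smallest adjusted p of the 19 genes in this comparison. Hoxd8 had 827, 1025.8 and 595.1 against 1545.9, 1327.2 and 1362.7. The difference of 0.82 ± 0.21 (adjusted p = 0.0204) was lost without P29 replicate 1, P44 replicate 1 or P44 replicate 3 (up to 0.0559). A second Hoxd8 probe set gave 1.26 ± 0.23 (adjusted p = 0.00473).

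In HoxA the genes of high number were called. Hoxa9, the paralog of Hoxc9 and Hoxd9, ranged from 137.6 to 333.1 in late anagen and from 828.6 to 1257.8 in telogen. The difference was 2.07 ± 0.36 (adjusted p = 0.00403), and a second, dimmer probe set of the gene gave 1.47 ± 0.69 and did not pass (adjusted p = 0.124). Hoxa10 had means of 61.9 and 132.7, at 1.17 ± 0.32 (adjusted p = 0.0237), a call lost without P44 replicate 2 or P44 replicate 3 (up to 0.0709). Its late anagen signals reached 78.5 at most, and those of Hoxc10 98.8, under every array median (111.2 or more). Both genes thus passed the filter only through arrays of other groups, telogen among them. Their place among the genes higher in telogen depends in part on that filter. Hoxa7 had 214.6, 209.7 and 50.6 in late anagen against 331.4, 364.2 and 281.9 in telogen, and with no overlap reached 1.30 ± 0.55 (adjusted p = 0.0972). Hoxa5, known for its role in the lung and the neck, had 833.8, 782.6 and 645.6 against 905.7, 803.1 and 943.2, at 0.23 ± 0.15 (adjusted p = 0.243). Like Hoxa9, Hoxa3 had probe sets that disagreed in their calls. Its main probe set gave 0.0036 ± 0.30 (adjusted p = 0.993) and another gave 1.34 ± 0.27 (adjusted p = 0.00746). The Hoxa3 gene model overlaps those of Hoxa4, Hoxa5 and Hoxa6, and which transcripts each probe set reads was not determined. Second probe sets of Hoxb3 and Hoxb4, whose gene models overlap, gave -0.78 ± 0.13 (adjusted p = 0.00335) and -0.91 ± 0.18 (adjusted p = 0.00792), in the direction of the main ones.

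Without the filter on low signals, when the adjustment ran over all 45037 probe sets, 6 of the 12 genes remained past the threshold (Hoxa9, Hoxb3, Hoxb4, Hoxc5, Hoxc8 and Hoxd9). Markers of other cells moved between the same mice. Higher in telogen were 5 of 8 dermal fibroblast markers, 8 of 8 muscle markers, 5 of 8 cornified epidermis markers and 1 of 6 adipocyte markers. Lower were 7 of 7 hair matrix and shaft markers, 6 of 6 markers of dividing cells, 3 of 8 dermal papilla markers (with 1 higher) and 2 of 8 cornified epidermis markers. The summed fibroblast signal ran from 96745 to 139248 in late anagen and from 156680 to 229220 in telogen. The summed muscle signal ran from 65129 to 93695 and from 203586 to 229544, and that of the hair matrix and shaft from 32776 to 37143 and from 1061 to 1347. No fibroblast or muscle marker was under the floor on any array. The part of these shifts in the Hox differences was not tested.

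**Figure D3:**
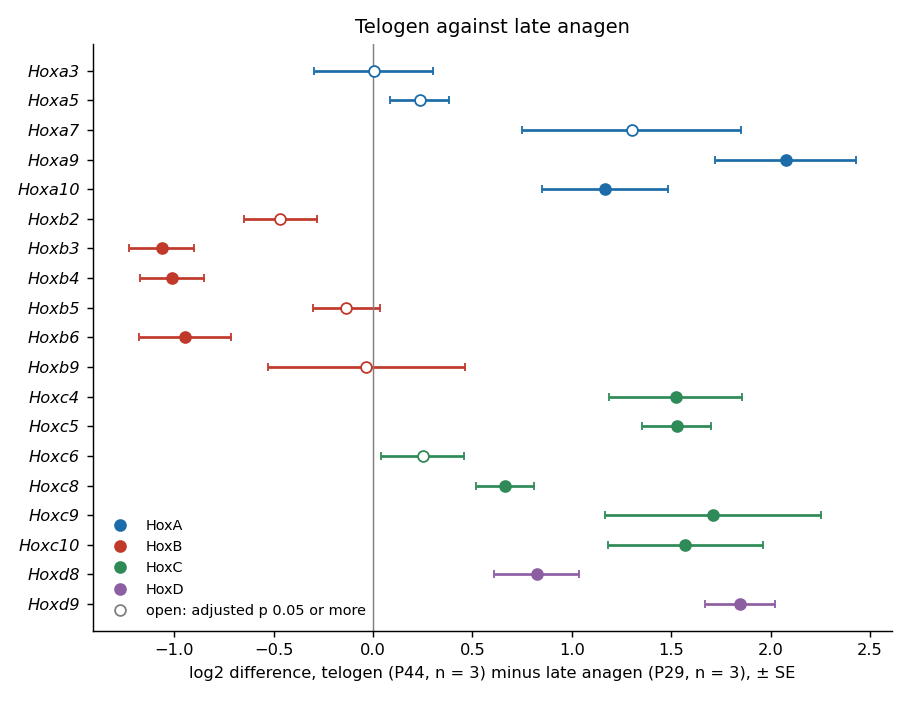
Log2 difference of each Hox gene between telogen (P44, n = 3) and late anagen (P29, n = 3), with its standard error from limma, coloured by cluster; filled points passed the adjusted threshold of 0.05. The 6 HoxB points lie left of 0 and the 13 others right of it, Hoxa3 at 0.0036.

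Each phase was then compared with the one before it in the order of the cycle. The only telogen mice were those of P44, which were older than the early anagen mice of P23 and P25. For this step a rise or fall is therefore a difference between phases and not a change over time. Age and phase cannot be told apart in it. Between telogen (P44) and early anagen 4 of 19 genes were called, beside 26.8% of all probe sets. Hoxb3 rose by 1.01 ± 0.27 (adjusted p = 0.0294), with signals of 797.6, 818.9, 502.3 and 1167.2 in early anagen. Hoxb6 rose by 1.32 ± 0.32 (adjusted p = 0.0223), with 712.9, 1044.7, 419.1 and 979.8. All 4 early anagen mice were above all 3 telogen mice for both genes, and P25 replicate 1 held the lowest value of each. The 6 HoxB genes were above 0, with a median of 0.58. Hoxc8 rose by 0.62 ± 0.14 (adjusted p = 0.0172), to 1244.6, 1074.1, 1332.8 and 1097.5. Hoxd9 fell by 0.83 ± 0.19 (adjusted p = 0.0195), to 275.6, 371.9, 301.6 and 407.3. Hoxc8 was the only one of the 4 called whichever array was left out. Hoxb3 lost its call without any 1 of the P23 and P44 arrays (up to 0.0924), and Hoxb6 without those or P25 replicate 2 (up to 0.0727). Hoxd9 lost it without P44 replicate 1 or 2 (up to 0.064). Without P25 replicate 1 there were 6 calls. Dermal papilla (6 of 8), dividing cell (6 of 6) and hair matrix (4 of 7) markers were higher in early anagen, and 6 of 8 muscle and 7 of 8 cornified epidermis markers were lower. Their part was not tested.

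From early to mid anagen 3 genes were called, all of them HoxC genes and all lower in mid anagen, beside 19.7% of all probe sets (10.4% higher and 9.27% lower). Hoxc4 went from 461.7, 301, 296.9 and 302.8 in early anagen to 170.5, 202.6 and 183.4, at -0.85 ± 0.18 (adjusted p = 0.0205). Hoxc5 went from 376.8, 255.9, 266.4 and 236.8 to 146.1, 125.2 and 154.9, at -0.98 ± 0.18 (adjusted p = 0.0135). Hoxc8 went to 580.9, 743.4 and 818.8, at -0.74 ± 0.16 (adjusted p = 0.019). For all 3 genes the early anagen mice lay above the mid anagen mice. A second Hoxb4 probe set was higher in mid anagen, at 0.77 ± 0.19 (adjusted p = 0.0292), while the main one gave 0.20 and did not pass. Without P27 replicate 1 or P27 replicate 2 all 3 calls were lost (up to 0.0802 for Hoxc4, 0.0606 for Hoxc5 and 0.0645 for Hoxc8), and Hoxc8 also lost its call without P23 replicate 1. Fibroblast markers (4 of 8) and muscle markers (5 of 8) were lower in mid anagen as well, and hair matrix markers (6 of 7) higher, and their part was not tested.

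From mid to late anagen and from late anagen to early catagen 0 of 19 genes passed, and so did 0% of all probe sets. At an unadjusted p under 0.05 there were 5 Hox genes in the first of these steps, beside 19.7% of all probe sets. They were Hoxb3, Hoxb4, Hoxb6, Hoxc5 and Hoxc8. In the second step there were 2 (Hoxb3 and Hoxb4), beside 13.3% of all probe sets. The methods' t-test at its own threshold of 0.01, without adjustment, called 1 gene in each. In early catagen (n = 6) Hoxc8 ranged from 437.9 to 520.5 with a median of 493, against 461.5 to 524 in late anagen.

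From early to mid catagen 6 genes were called, beside 35.3% of all probe sets (17.4% higher and 17.9% lower). By their main probe sets all 13 genes of HoxA, HoxC and HoxD were above 0 (median 0.66), while a dimmer one of Hoxc6 was at -0.12 ± 0.48. Hoxd9 rose by 1.44 ± 0.29 (adjusted p = 0.00527), from a range of 106.3 to 265.6 (median 185, n = 6) to 392.8, 485 and 488. Hoxc8 rose by 0.66 ± 0.11 (adjusted p = 0.00213), to 809.6, 830.8 and 659.8. Neither of these genes overlapped between the phases. Hoxc4 rose by 0.91 ± 0.25 (adjusted p = 0.0223), from 107.9 to 249.6 (median 139) to 228, 245.6 and 378.2, and Hoxa5 rose by 0.47 ± 0.14 (adjusted p = 0.0249), from 551.5 to 704.9 (median 624) to 692.7, 1002.3 and 960.8. Hoxa10 rose by 0.60 ± 0.19 (adjusted p = 0.0371), and its early catagen signals, 89.8 at most, were under every array median. These last 3 overlapped, and their calls were lost without P41 replicate 2 or P41 replicate 3 (up to 0.101 for Hoxc4, 0.115 for Hoxa5 and 0.167 for Hoxa10). Hoxa10 also lost its call without any 1 of P37 replicate 1, P37 replicate 3, P39 replicate 1 or P39 replicate 2. Hoxb2 fell by 0.52 ± 0.10 (adjusted p = 0.00419), from 611.2 to 773.2 (median 687) to 459.6, 498 and 469. Second probe sets of Hoxa3 (0.97 ± 0.19, adjusted p = 0.00441) and Hoxd8 (0.71 ± 0.15, 0.0069) passed where the main ones did not, and that of Hoxa5 (0.50 ± 0.30, 0.218) did not. Hoxb2 was thus the HoxB gene called in this step, and its direction was opposite to that of the 5 others called. In mid catagen 7 of 8 muscle markers, 3 of 8 fibroblast markers and 3 of 6 adipocyte markers were higher, and 6 of 7 hair matrix markers and 6 of 6 markers of dividing cells lower, with no test of their part.

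From mid catagen to telogen 1 gene was called, beside 5.88% of all probe sets (2.00% higher and 3.88% lower). Hoxb6 fell by 1.20 ± 0.18 (adjusted p = 0.0196), from 846.4, 656.4 and 578.9 to 280.6, 274.4 and 346.6. The call was lost without P41 replicate 2, P44 replicate 1 or P44 replicate 2 (up to 0.0791), and it was lost with the replicate number as a block. Hoxb3 had 513.8, 628.9 and 638.8 in mid catagen, above its 3 telogen values. In telogen 6 of 8 muscle markers and 1 of 8 fibroblast markers were higher, and 6 of 7 hair matrix markers and 1 of 8 dermal papilla markers lower, and their part was not tested.

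**Figure D4:**
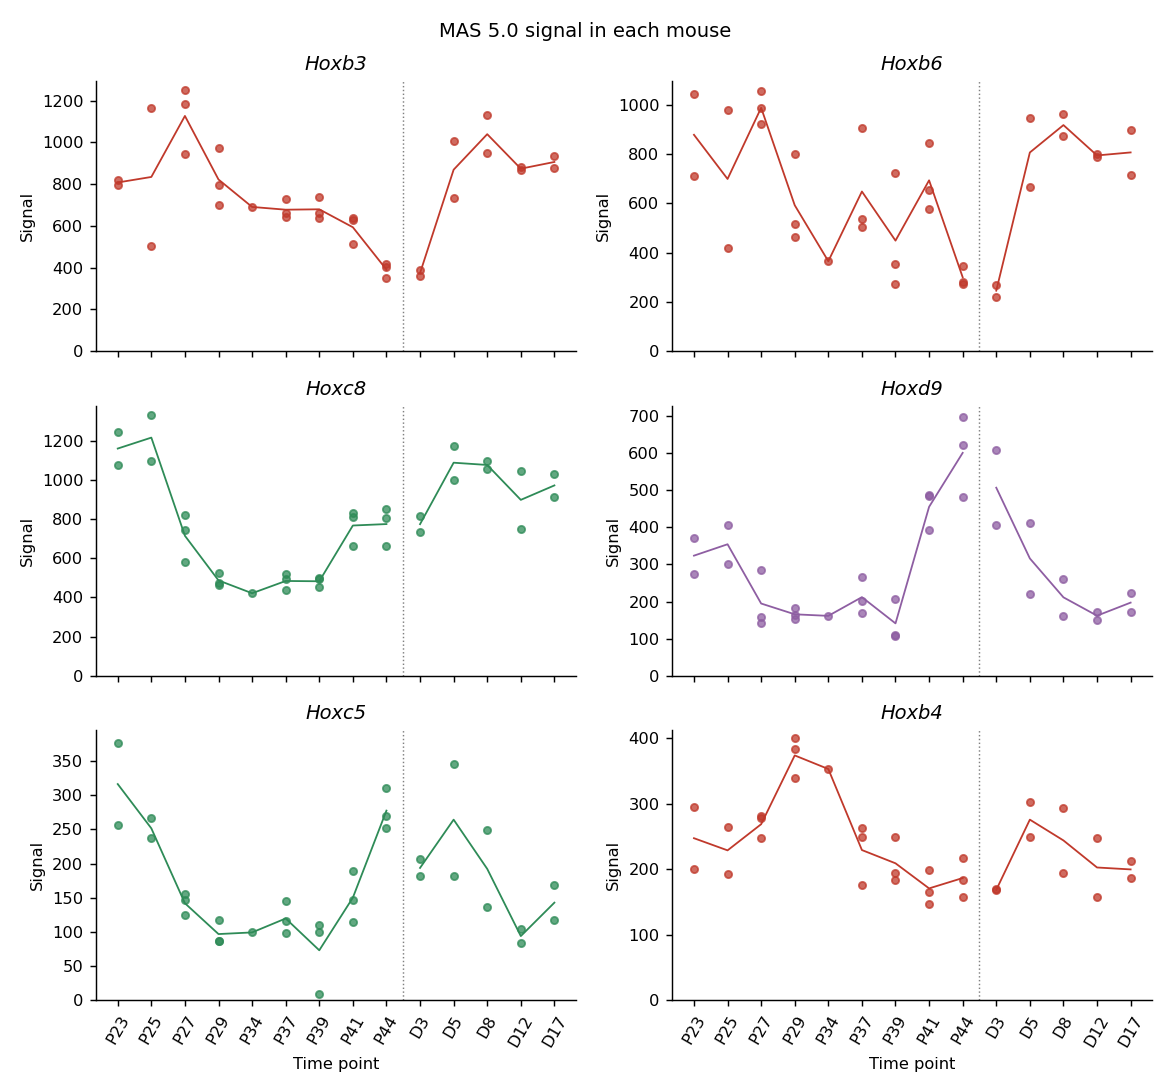
Signal of 6 Hox genes in every mouse (points) over the natural cycle (P) and after depilation (D), with lines through the means of the time points and the vertical axis from 0; P34 is 1 mouse. Hoxc8 lies between 437.9 and 524 at P29, P37 and P39 but at or above 733 on every depilation array, and Hoxb6 is low at both P44 and D3.

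After depilation 3 of 19 genes passed the F test over 5 time points, beside 10.2% of all probe sets. They were Hoxb6 (adjusted p = 0.00946), Hoxb3 (0.0153) and Hoxa7 (0.0448). All 3 were among the 13 called in the natural cycle. Leaving out an array gave between 0 calls (without D3 replicate 2) and 5 (without D5 replicate 2). Hoxa7 lost its call without any 1 of the D3, D5, D8 and D12 arrays (up to 0.138), Hoxb3 without either D3 array (up to 0.0959) or with its second probe set (0.0587), and Hoxb6 without D3 replicate 2 (0.0571).

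From D3 to the mean of D8 and D12, that is from early to late anagen after depilation, 6 genes were called, beside 19.0% of all probe sets (9.67% higher and 9.33% lower). Higher in late anagen were Hoxb2, Hoxb3 and Hoxb6, and lower were Hoxa7, Hoxc4 and Hoxd9. All 6 HoxB genes were above 0, with a median of 0.49, and all 5 HoxA and both HoxD genes were below 0, with medians of -0.72 and -1.04. The HoxC genes were divided, with 2 above 0 and 4 below. These counts by cluster were the same under quantile normalization and with 16 added to the signal in place of the floor.

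Hoxb6 rose most, from 270.1 and 221.8 at D3 to 874.2, 962.2, 800.8 and 789.1 at D8 and D12, at 1.80 ± 0.19 (adjusted p = 0.00165). Hoxb3 went from 360.3 and 388.1 to 949.6, 1129.5, 867 and 881.6, at 1.35 ± 0.16 (adjusted p = 0.00279). By D5 both genes had left the D3 level, Hoxb6 at 948.4 and 665.6 and Hoxb3 at 1005.4 and 733.5. Hoxb2 went from 477.9 and 495 to 724.6, 660.1, 788.7 and 697.2, at 0.56 ± 0.16 (adjusted p = 0.0496). None of these 3 genes overlapped between D3 and late anagen, which 2 mice against 4 reach easily.

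Hoxd9 fell by 1.45 ± 0.32 (adjusted p = 0.021), from 608 and 405.7 to 161.3, 261.6, 172.9 and 151.1. Hoxc4 fell by 1.37 ± 0.35 (adjusted p = 0.035), from 563.8 and 378.7 to 237.7, 205.2, 149.9 and 141. Hoxa7 fell by 0.80 ± 0.19 (adjusted p = 0.0282), from 502.2 and 580.6 to 326.9, 380.9, 263.3 and 279.5. For each of them both D3 mice lay above all 4 late anagen mice. The probe sets of Hoxd8 disagreed, with -0.63 for the main one, which did not pass, and -1.62 ± 0.38 (adjusted p = 0.0259) for a second. Hoxb3 and Hoxb6 kept their calls whichever of the 6 arrays was left out. The calls of Hoxa7 (adjusted p up to 0.116), Hoxb2 (up to 0.209) and Hoxc4 (up to 0.215) were lost whichever was left out. That of Hoxd9 was lost without D3 replicate 1, D8 replicate 1 or either D12 array (up to 0.152). Between the same arrays 7 of 7 hair matrix markers and 4 of 8 dermal papilla markers (with 1 lower) were higher in late anagen, and 8 of 8 muscle markers and 4 of 6 adipocyte markers lower, while 0 of 8 fibroblast markers passed. The summed muscle signal was 208021 to 295695 at D3 and 70191 to 129593 at D8 and D12, and its part was not tested.

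The 2 cycles were compared at the phases named early and late anagen, in a fit of all 33 arrays. At early anagen 5 of 19 genes were lower after depilation (D3, n = 2) than in the natural cycle (P23 and P25, n = 4), beside 44.6% of all probe sets (18.5% higher and 26.1% lower). All 6 HoxB genes were below 0, with a median of -0.92, against -0.09 for all probe sets. Hoxb6 was lower at -1.60 ± 0.34 (adjusted p = 0.000665), Hoxb3 at -1.07 ± 0.22 (0.000427), Hoxb5 at -0.76 ± 0.22 (0.00865) and Hoxb2 at -0.49 ± 0.14 (0.00886). Hoxb5 had 118.3 and 113.1 at D3 and 196.1, 189.6, 153.9 and 256.8 in natural early anagen, and Hoxb2 had 477.9 and 495 against 670.2, 754.8, 579.6 and 742.7. A second Hoxa5 probe set was higher at D3, at 0.94 ± 0.30 (adjusted p = 0.0134), while the main one gave 0.01. For the HoxB genes called, both D3 mice lay below all 4 natural mice. Hoxc8, with 814.2 and 733 at D3, was also lower, at -0.61 ± 0.16 (adjusted p = 0.00306). The D3 values of Hoxb3 and Hoxb6 lay in or near the range of the P44 telogen mice, which were 352.3 to 417.6 for Hoxb3 and 274.4 to 346.6 for Hoxb6. The call of Hoxb2 was lost without D3 replicate 1 (adjusted p = 0.0735) and under quantile normalization, and that of Hoxb5 without D3 replicate 2 (0.058). Fibroblast markers (7 of 8), dermal papilla markers (6 of 8, with 1 higher) and hair matrix markers (4 of 7) were lower at D3 too, and muscle markers (6 of 8) higher. Hair matrix and shaft signals summed to between 1146 and 1155 at D3 and between 5640 and 12512 in natural early anagen. The P44 telogen mice had 1061 to 1347. Dermal papilla sums were 1279 to 1297 at D3, 4191 to 8045 in natural early anagen and 1255 to 1639.5 at P44. Both D3 sums thus lay within the telogen range, while those of dividing cells, at 10465 to 13528.5, lay above its 1683 to 2255. D3 and natural early anagen were matched by phase name, and the part of these markers was not tested.

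At late anagen 3 genes differed, beside 26.5% of all probe sets (10.6% higher and 15.9% lower). Hoxc8 was higher after depilation, with 1057, 1094.2, 749.1 and 1046 against 524, 461.5 and 474.4, at 1.01 ± 0.14 (adjusted p = 2.31e-05). Hoxb4 was lower, with 194, 293.8, 248.3 and 157 against 382.7, 338.5 and 399.4, at -0.78 ± 0.20 (adjusted p = 0.00527). A second Hoxb4 probe set gave -0.38 ± 0.19 and did not pass (adjusted p = 0.145). Hoxa7 was higher, at 1.23 ± 0.43 (adjusted p = 0.0387). The groups of all 3 genes were apart, and the Hoxa7 call was lost without P29 replicate 3, whose signal was 50.6, or any 1 of the D8 and D12 arrays (up to 0.352). At late anagen 0 of 7 hair matrix markers differed between the cycles. Higher after depilation were 5 of 8 muscle markers and 5 of 8 cornified epidermis markers. Lower were 3 of 8 fibroblast markers (with 1 higher) and 1 of 6 adipocyte markers, and no test of their part was made.

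The change from early to late anagen was then compared between the cycles itself. It differed for 3 of 19 genes, beside 18.2% of all probe sets (7.66% with a higher and 10.6% with a lower value), and these were Hoxb3, Hoxb6 and Hoxc8, each called whichever array was left out. Hoxb6 changed by -0.37 ± 0.30 in the natural cycle and by 1.80 ± 0.34 after depilation, a difference of -2.17 ± 0.45 (adjusted p = 0.0027). Hoxb3 changed by 0.05 ± 0.19 and by 1.35 ± 0.22, a difference of -1.30 ± 0.29 (adjusted p = 0.00433). For Hoxb3 and Hoxb6 late anagen was not called different between the cycles, and D3 was the level that stood apart. At D3 the hair matrix and dermal papilla sums lay within the range of the P44 telogen mice, and the dividing cell sums above it. Hoxc8 changed by -1.28 ± 0.14 and by 0.34 ± 0.16, a difference of -1.62 ± 0.21 (adjusted p = 3.01e-05), so that it fell with growth in the natural cycle and did not pass after depilation (adjusted p = 0.115). Hoxc4 and Hoxd9 fell in both cycles in this fit, Hoxc4 at -1.31 ± 0.30 and -1.37 ± 0.34 and Hoxd9 at -1.02 ± 0.28 and -1.45 ± 0.31. No difference between the cycles was called for either. Of the marker lists, 6 of 8 dermal papilla, 5 of 8 fibroblast and 4 of 7 hair matrix markers had a lower difference as well and 3 of 6 adipocyte markers a higher one, and their part was not tested.

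**Figure D5:**
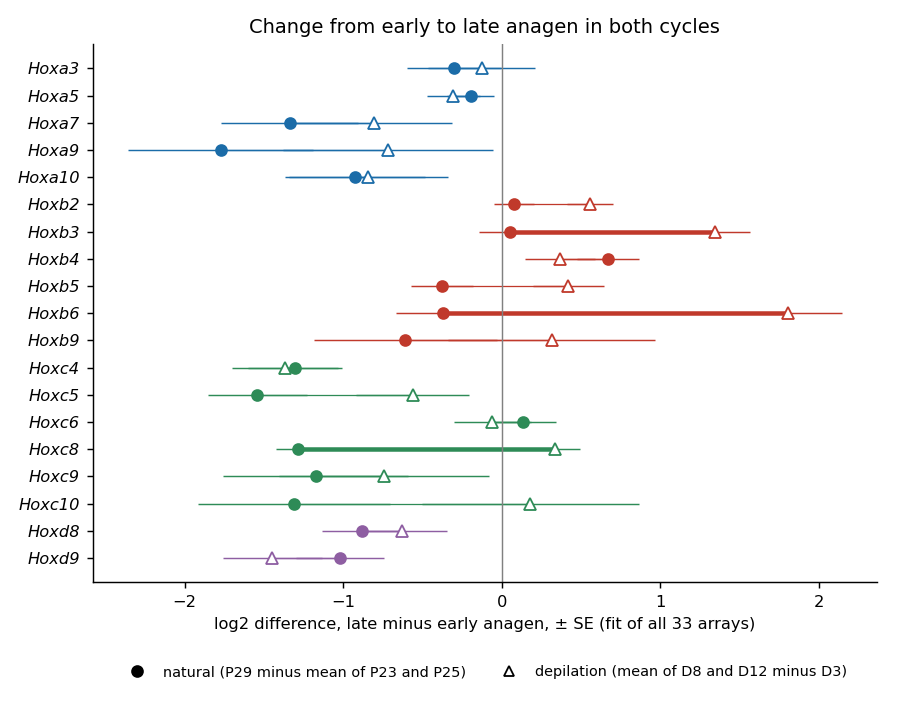
Log2 change of each Hox gene from early to late anagen in the natural cycle (filled circles) and after depilation (open triangles), with standard errors from a fit of all 33 arrays. Thick lines join the 2 values where the difference between the cycles passed the adjusted threshold of 0.05, for Hoxb3, Hoxb6 and Hoxc8.

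Within time points the Hox genes varied among mice to different degrees. The standard deviation of log2 signal around the time point means, pooled over the arrays, was 0.82 for Hoxa9, 0.62 for Hoxa10, 0.80 for Hoxb9, 0.81 for Hoxc9 and 0.84 for Hoxc10. It was 0.17 for Hoxc8 and 0.16 for Hoxb2, and the median of all probe sets was 0.27, with a 95th percentile of 0.61. All 5 members with paralog number 9 or 10 in HoxA, HoxB and HoxC were therefore above that percentile, and Hoxd9 was not, at 0.38. Hoxa7, of lower number, was just under it at 0.60. This look at the spread was chosen after the values were seen. Signals near the floor widen it, and Hoxa10, Hoxb9, Hoxc9 and Hoxc10 were under the floor on 2 to 4 arrays each, while Hoxa9 was on 0.

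Some mice were low for several of these genes. At P27 replicate 2 had 110.6 for Hoxa9, 13.5 for Hoxa10, 12.8 for Hoxb9, 24.8 for Hoxc9 and 3.1 for Hoxc10, and the other mice of that day had at least 535.6, 51.4, 113.3, 140.7 and 110.1. At P23 replicate 1 had 374.3 for Hoxa9 against 994.2, 32.4 against 141.5 for Hoxa10 and 62.5 against 296.9 for Hoxc10, but 149.2 against 169.8 for Hoxc9. Hoxd9 of P27 replicate 2, at 141.9, was near the 157.2 of replicate 1, and Hoxb3, Hoxc4 and Hoxc8 of P27 replicate 2 lay between the values of the other mice or above them. Over the 13 time points with more than 1 mouse, the mouse with the lowest Hoxa9 also had the lowest Hoxa10 in 12, the lowest Hoxd8 in 11 and the lowest Hoxd9 in 10. It had the lowest Hoxc10 in 9 and the lowest Hoxa7 in 9 as well. It had the lowest Hoxb9 in 8, likewise the lowest Hoxa5 and the lowest Hoxb6, and the lowest Hoxc9 in 6. It had the lowest Hoxb3 or Hoxc8 in 5 and the lowest Hoxc4 in 4, and the median over all probe sets was 6, so that Hoxc9 was at that median. At least 12 matches were reached by 0.0556% of all probe sets, at least 11 by 0.319%, at least 10 by 1.68%, at least 9 by 5.8% and at least 8 by 15.5%. Groups with 2 mice match often, the genes share arrays, and Hoxa9 was chosen as the reference after the values were seen, so these counts are a description.

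Genes around the Hox factors were described by lists. TALE homeodomain proteins (PBX, MEIS, PKNOX and TGIF) bind DNA together with Hox proteins or at like sites. In the F test of the natural cycle 9 of 9 measured TALE genes were called, beside 72.6% of all probe sets. In telogen against late anagen 3 of 9 were higher and 1 lower, beside the 23.0% and 21.6% of all probe sets. Pknox2 had means of 485 in telogen and 122.3 in late anagen, at 2.03 ± 0.29 (adjusted p = 0.00201), and Meis2 had 178.8 and 57.5, at 1.69 ± 0.31 (0.00538). Tgif2 had 115.4 and 405.3, at -1.82 ± 0.17 (0.000456), and Pbx3 was higher, at 0.71 ± 0.19. After depilation Pknox2 fell from D3 to late anagen by 2.07 ± 0.28 (adjusted p = 0.00433) and Tgif2 rose by 1.34 ± 0.18 (0.00423), with no other TALE gene called, beside 19.0% of all probe sets.

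Chromatin regulators of the Hox clusters include the Polycomb proteins, which keep Hox genes silent, and the Trithorax proteins, which keep them active. Of 25 measured 21 were called over the natural cycle, beside 72.6% of all probe sets. In telogen against late anagen 5 were higher and 5 lower, near the background of 23.0% and 21.6%. Higher were Cbx7 (1.70 ± 0.13), Phc3 (0.74 ± 0.13) and Ezh1 (0.85 ± 0.16) of Polycomb, the Trithorax methyltransferase Kmt2a (0.80 ± 0.16) and the acetyltransferase Kat6a (0.50 ± 0.14). Lower were Suz12 (-0.96 ± 0.12), Mtf2 (-0.89 ± 0.19), Ezh2 (-0.51 ± 0.12) and Cbx2 (-0.58 ± 0.15) of Polycomb and Rbbp5 (-0.39 ± 0.13) of the methyltransferase complexes. Ezh1 and Ezh2, which encode alternative enzymes of the same complex, thus differed in opposite directions. Between the same mice 6 of 6 markers of dividing cells were lower in telogen, and their part was not tested.

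Of upstream regulators of Hox genes (Cdx genes, retinoic acid receptors, Gdf11 and Zbtb16) 4 were measured above the filter, 2 of them were called over the natural cycle (72.6% of all probe sets), and 0 in telogen against late anagen (44.6%). Zbtb16, which encodes a repressor known from limb Hox patterning, was at 1.48 in that comparison (adjusted p = 0.118) and fell by 2.16 ± 0.39 from D3 to late anagen after depilation (adjusted p = 0.0108). Of 12 measured genes that flank the clusters 2 were higher in telogen than in late anagen and 3 lower, near the 23.0% and 21.6% of all probe sets. Beside HoxA, Snx10 and Skap2 were higher, at 1.31 ± 0.17 and 0.57 ± 0.14. Beside HoxC, Smug1 and Hnrnpa1 were lower, at -0.74 ± 0.16 and -0.49 ± 0.13. Beside HoxD, Mtx2 was lower, at -0.74 ± 0.11. No gene flanking HoxB was measured above the filter other than Atp5g1, at 0.35 (adjusted p = 0.127).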

How the data were processed

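RNA of whole dorsal skin from 33 mice was measured on Affymetrix mouse genome arrays. The authors deposited linear MAS5 signal, an intensity per probe set (software version not given in the sources used here). Array means were near equal, and no further scaling was applied. The authors' present call filter and noise transformation are not in these values. Depth has no counterpart on arrays, and the number of arrays limits the precision. No scan date or batch was given in the sources used here.

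Groups followed the days in the labels. The phase named for P41, P44 and all depilation samples in the labels, early anagen, differs from the phases in the series description, and the latter were used. Probe sets were named from the platform annotation. A floor of 34.6 (percentile 25 over the whole table) replaced lower signals before log2 was taken. A probe set was kept if it exceeded the array median on 3 or more arrays, which left 26988 of 45037.

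Log2 differences and standard errors came from linear models in limma (version 3.58.1, functions lmFit and eBayes, under R 4.3.3). The p-values of the kept probe sets were adjusted together by the Benjamini-Hochberg method, with a threshold of 0.05. Steps of the natural cycle, 1 phase against the one before as in the methods, used only the arrays compared. Contrasts after depilation came from a fit of its 10 arrays, and contrasts between cycles from a fit of all 33 with 1 mean per time point. The code for the fits was tested on simulated data with known changes, and no value given here comes from that test. The labels call the arrays biological replicates, and each p-value rests on the spread between these mice.

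Signals of every array are given for the 12 kept Hox genes with the smallest F-test p among those called in the natural cycle, and for any called after depilation or between the cycles. The members, gene lists and markers were chosen with earlier results of these data known. Alternatives tried were 16 added in place of the floor, no filter, quantile normalization, the second probe set and sex as a covariate. Others were the replicate number as a block, a joint fit and a t-test at the methods' threshold of 0.01. P34 was also added to late anagen, and each array was left out in turn. The study ran one-way ANOVA on noise-transformed values of hair cycle-regulated genes, while this t-test used the log2 signals of all kept probe sets. Promoter sequences came from RefSeq (GRCm38.p6). Figures were drawn with matplotlib 3.10.9 in Python.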

Additional observations from a re-analysis of the deposited data

Results flagged for a closer look

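Among groups of 4 to 6 arrays, 57 group and gene combinations were examined for an array far from the others, and 6 were found. Chance gives about 1 in 20. In natural early anagen P23 replicate 1 had 199.2 for Hoxa7, below the 379.8 to 416.6 of the other 3, and 461.7 for Hoxc4, above their 296.9 to 302.8. In natural early catagen P37 replicate 1 had 249.6 for Hoxc4, above the 107.9 to 149.5 of the other 5. In the same phase P39 replicate 2 had 9.4 for Hoxc5, below the 98.1 to 144.9 of the other 5. In late anagen after depilation D12 replicate 2 had 27.1 for Hoxb9, below 85.2 to 91.2, and D12 replicate 1 had 749.1 for Hoxc8, below 1046 to 1094.2.

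The change from early to late anagen differed between the natural and the depilation cycle for Hoxb3 (-1.30 ± 0.29), Hoxb6 (-2.17 ± 0.45) and Hoxc8 (-1.62 ± 0.21), by the test of the difference itself in limma (adjusted p = 0.00433, 0.0027 and 3.01e-05).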

How the results depend on the processing

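Of 443 recomputed single-gene results under alternatives other than leaving out an array, 379 kept direction and side of the threshold, 64 lost significance and 0 reversed. The replicate number as a block gave 0 calls from mid catagen to telogen in place of 1, and it moved no other count of calls by over 1.5 times. The numbers do not pair the mice (mean correlation of deviations 0.009 over 171 pairs with the same number, from -0.262 to 0.387, with 16 of 32 arrays correlating best with their own number).

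Calls from telogen to early anagen (4) were 2 without the filter, 2 by the t-test at 0.01 and 2 after its adjustment. From early to mid anagen (3) there were 5 under quantile normalization. From mid to late anagen (0) the joint fit gave 1 and the t-test at 0.01 gave 1, and from late anagen to early catagen (0) that t-test gave 1. From mid catagen to telogen (1) there were 0 without the filter, 2 with sex as a covariate, 2 by the t-test at 0.01 and 0 after its adjustment. In telogen against late anagen (12) there were 6 without the filter, 6 by the t-test at 0.01 and 6 after its adjustment. Without the filter more probe sets enter the adjustment, and the cause of the other changes was not tested.

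Leaving out 1 array at a time gave 11 to 14 calls over the natural cycle, 1 to 6 in early anagen against telogen, 0 to 4 in mid against early anagen, 0 in both late against mid anagen and early catagen against late anagen, 3 to 6 in mid against early catagen, 0 to 1 in telogen against mid catagen and 8 to 12 in telogen against late anagen. After depilation it gave 0 to 5 over all days and 2 to 3 for late against early anagen, 4 to 7 and 2 to 3 for early and late anagen against the natural cycle, and 3 to 5 for the difference in growth change. Signal over background limits Hoxa10, Hoxb9, Hoxc9 and Hoxc10 most.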

Other observations

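Probe sets for other transcripts of the Hox clusters lay outside the choice of genes. Hoxb5os, an antisense transcript of the HoxB cluster, had signals of 1155.7, 1515.4 and 1560.3 in late anagen (P29) and of 116.7, 163.1 and 164.9 in telogen (P44). The log2 difference was -3.26 ± 0.20 (limma, adjusted p = 0.000135), while Hoxb5 itself was at -0.13 ± 0.17 (adjusted p = 0.547). After depilation Hoxb5os had 126.7 and 128.8 at D3, 711.4 and 730.1 at D5, and between 938.1 and 1485.5 from D8 to D17. In early catagen it lay between 653.9 and 1240.6, and at P41 between 179.4 and 306.5. These probe sets were picked out after their values were seen, and whether each reads only the antisense strand was not determined.

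Hoxd3os1, an antisense transcript of the HoxD cluster, had 118.2, 186.7 and 294.9 in late anagen and 494.1, 636.8 and 691.4 in telogen, at 1.69 ± 0.33 (adjusted p = 0.00715). A probe set shared by Hoxd4 and Hoxd3 was at 1.44 ± 0.48 in the same comparison (adjusted p = 0.0493), and one shared by Hoxb8 and Hoxb7 at 0.48 ± 0.36 (adjusted p = 0.315).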
